A study of Rattus norvegicus with 20 samples.

Results

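Potassium channel genes were examined as a group of 56 listed members, set by a list of gene symbols, that covers the pore-forming alpha subunits, the cytoplasmic and transmembrane partners and the silent subunits of 10 channel families. A member was represented by the probe set (the group of array probes that reads 1 transcript region) that carried a single gene symbol and had the highest mean over all arrays. Such a probe set was found for 53 of the 56 genes, and all 53 lay above the background floor in all 20 arrays, so that 53 of the 14586 genes tested were members. The probe set of Kcnip2 carried a second symbol and was left out, and Kcnc4 and Kcnn2 were not matched to a named probe set and were not analysed here. Only Kcnj2 had a choice of 2 probe sets.

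Adult male Sprague-Dawley rats gave the left dentate gyrus, whose mRNA was read on Affymetrix gene arrays (Rat Gene 1.1 ST), 1 for each rat, with 5 rats in each of 4 groups. Stimulated rats received an electrical stimulation of the lateral amygdala through an implanted electrode, which evoked status epilepticus (SE, a prolonged seizure) that was ended with diazepam, and they were killed at 7 d or 30 d. They were followed by video-EEG, and the study describes them as epileptic. The median seizure count it gives is lower for the 7 d group, whose range includes no recorded seizure, than for the 30 d group. Sham-operated rats carried the same electrodes, were never stimulated and were killed at the matching times, so that implantation is common to all 4 groups while SE and diazepam cannot be told apart.

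Potassium channels let potassium leave the cell and thereby set the resting potential, end the action potential and limit repetitive firing. Voltage-gated (Kv) channels assemble from sets of alpha subunits with auxiliary proteins, inward rectifiers and two-pore channels carry resting and receptor-driven currents, and a further class opens on internal calcium or sodium. Granule cells, the principal neurons of the dentate gyrus, fire sparsely, and their A-type, M-type and leak potassium currents are among the conductances known to keep them so.

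Of the 7 members whose mRNA differed at one of the times, 4 had a start-site window in the RefSeq promoter table of the rat assembly GRCr8, and these 4 windows are shown because they belong to the genes on which the results turn. Each runs 5′ to 3′ on the gene's strand from 250 bases before the start to 50 bases after it, in lower case, and the capitals mark a GC box (GGGCGG on either strand), the only one of 4 searched motifs found in any of them.
Kcna2, chr2:197393280-197393579, plus strand: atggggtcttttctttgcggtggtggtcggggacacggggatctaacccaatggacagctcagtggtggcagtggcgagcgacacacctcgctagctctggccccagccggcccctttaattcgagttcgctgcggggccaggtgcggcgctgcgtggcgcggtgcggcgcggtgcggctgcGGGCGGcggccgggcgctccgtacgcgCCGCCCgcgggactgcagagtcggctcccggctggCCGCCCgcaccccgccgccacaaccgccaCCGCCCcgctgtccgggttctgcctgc
Kcnh5, chr6:99643807-99644106, minus strand: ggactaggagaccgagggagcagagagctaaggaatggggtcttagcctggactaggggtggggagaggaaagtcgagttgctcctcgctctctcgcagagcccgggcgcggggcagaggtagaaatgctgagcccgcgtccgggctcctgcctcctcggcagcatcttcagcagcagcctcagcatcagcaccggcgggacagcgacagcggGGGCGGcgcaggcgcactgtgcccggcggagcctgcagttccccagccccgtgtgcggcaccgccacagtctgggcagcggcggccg
Kcnc2, chr7:49587364-49587663, plus strand: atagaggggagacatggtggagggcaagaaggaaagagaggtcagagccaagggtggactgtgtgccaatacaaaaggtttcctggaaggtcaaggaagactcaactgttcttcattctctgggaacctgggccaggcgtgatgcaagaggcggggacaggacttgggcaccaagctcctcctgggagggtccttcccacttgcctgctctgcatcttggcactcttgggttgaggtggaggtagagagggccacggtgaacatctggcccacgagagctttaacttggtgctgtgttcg
Kcnt2, chr13:54215057-54215356, plus strand: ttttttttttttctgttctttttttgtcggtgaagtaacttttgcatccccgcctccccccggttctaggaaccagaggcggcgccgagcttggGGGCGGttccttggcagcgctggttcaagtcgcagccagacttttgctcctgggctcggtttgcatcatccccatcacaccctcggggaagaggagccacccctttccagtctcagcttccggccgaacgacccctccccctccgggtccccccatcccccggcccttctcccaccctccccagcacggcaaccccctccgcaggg
The Kcna2 window (73.3% G or C) held 4 GC boxes, beginning 68, 41 and 6 bases before the start and 23 bases after it. The window of Kcnh5 held 1, beginning 37 bases before the start, and that of Kcnt2 held 1, beginning 156 bases before it. None of the 4 motifs was found in the window of Kcnc2, whose GC content was 56%. Over all members 35 of 53 were matched to such a window. The first listed window of each gene was taken. A GC box was found in 19 of these 35 (54.3%), against 34.9% of all 27457 genes of the table with a window of full length. The 27457 were not limited to genes measured here. The core of the cAMP response element (TGACG) was found in 17.1% of the members' windows and 22% of all, the AP-1 site (TGANTCA) in 2.86% and 7.33%, and the TATA box (TATAAA) in 0 of 35 and 14.3%, all searched on both strands. The median GC content was 65.7% in the members' windows and 52.3% in all.

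Values are log2 intensities normalized with RMA by the authors, and a change is stimulated minus sham on that scale. A member was called when limma's adjusted p (Benjamini-Hochberg over all 15800 probe sets tested) was under 0.05. The array medians lay between 5.22 and 5.31, the correlation between any 2 arrays lay between 0.9816 and 0.9978, and the members' median within-group SD was 0.123, against 0.112 over all probe sets. Prox1, the transcription factor that defines granule cells, lay between 9.35 and 9.82 in all 20 arrays. The array of stimulated replicate 5 at 7 d and that of sham replicate 3 at 30 d stood apart on 1 axis. This was the second principal component (axis of shared variation) of the deviations from group means, where they reached 14.5 and 11.7. On the first component other arrays lay farther out (sham replicate 3 at 7 d at -15.3 and stimulated replicate 1 at 7 d at 14.2), and these were kept together in the counts. Wfs1, a marker of CA1 pyramidal cells, was above 8.5 in sham replicate 2 and stimulated replicates 4 and 5 at 30 d and at most 8.14 in the other arrays. Counts below were repeated without these arrays.

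At 7 d after stimulation, 6 of the 53 members differed between stimulated and sham rats, 4 of them lower and 2 higher. Over all probe sets tested 6.48% were called at 7 d, 2.46% lower and 4.02% higher. The lower members were Kcnh5, Kcnt2, Kcnv1 and Kcna2, and the higher members were Kcnh2 and Kcnk1. At 30 d, 2 members were called, both lower (Kcnc2 and Kcnh5), against 1.73% of all probe sets (0.899% lower). With the 2 times averaged, 14 members were called, 11 lower and 3 higher, against 10.1% of all probe sets (4.46% lower and 5.59% higher). Over the alternative processings the 7 d count lay between 3 and 12 members. The upper end was reached with array weights and with each array centred on its median (10 lower and 2 higher). No share of all probe sets is given for these alternatives.

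Small changes below zero were common among the members. At 7 d, 35 of 53 members (66.0%) had a change below 0, against 49.3% of all probe sets, and the median change was -0.07 against 0.00. At 30 d these were 36 of 53 (67.9%) against 53%, and -0.05 against -0.01. The members' changes ranged from -0.76 to 0.40 at 7 d and from -0.50 to 0.23 at 30 d. The median 95% confidence interval of a member's change reached 0.157 to either side at 1 time and 0.111 for the mean of both. This is the precision of a change before adjustment and not the size that would be called. Larger changes were not called at 7 d, among them those of Kcnk4 (-0.40) and Kcnh4 (-0.24). The sign was the same at both times for 46 members, against 64.6% of all probe sets, with 32 members below 0 at both times, against 33.5%. The groups compared at 7 d and at 30 d are separate rats, while the mean of both times uses the same arrays as each.

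**Figure D1:**
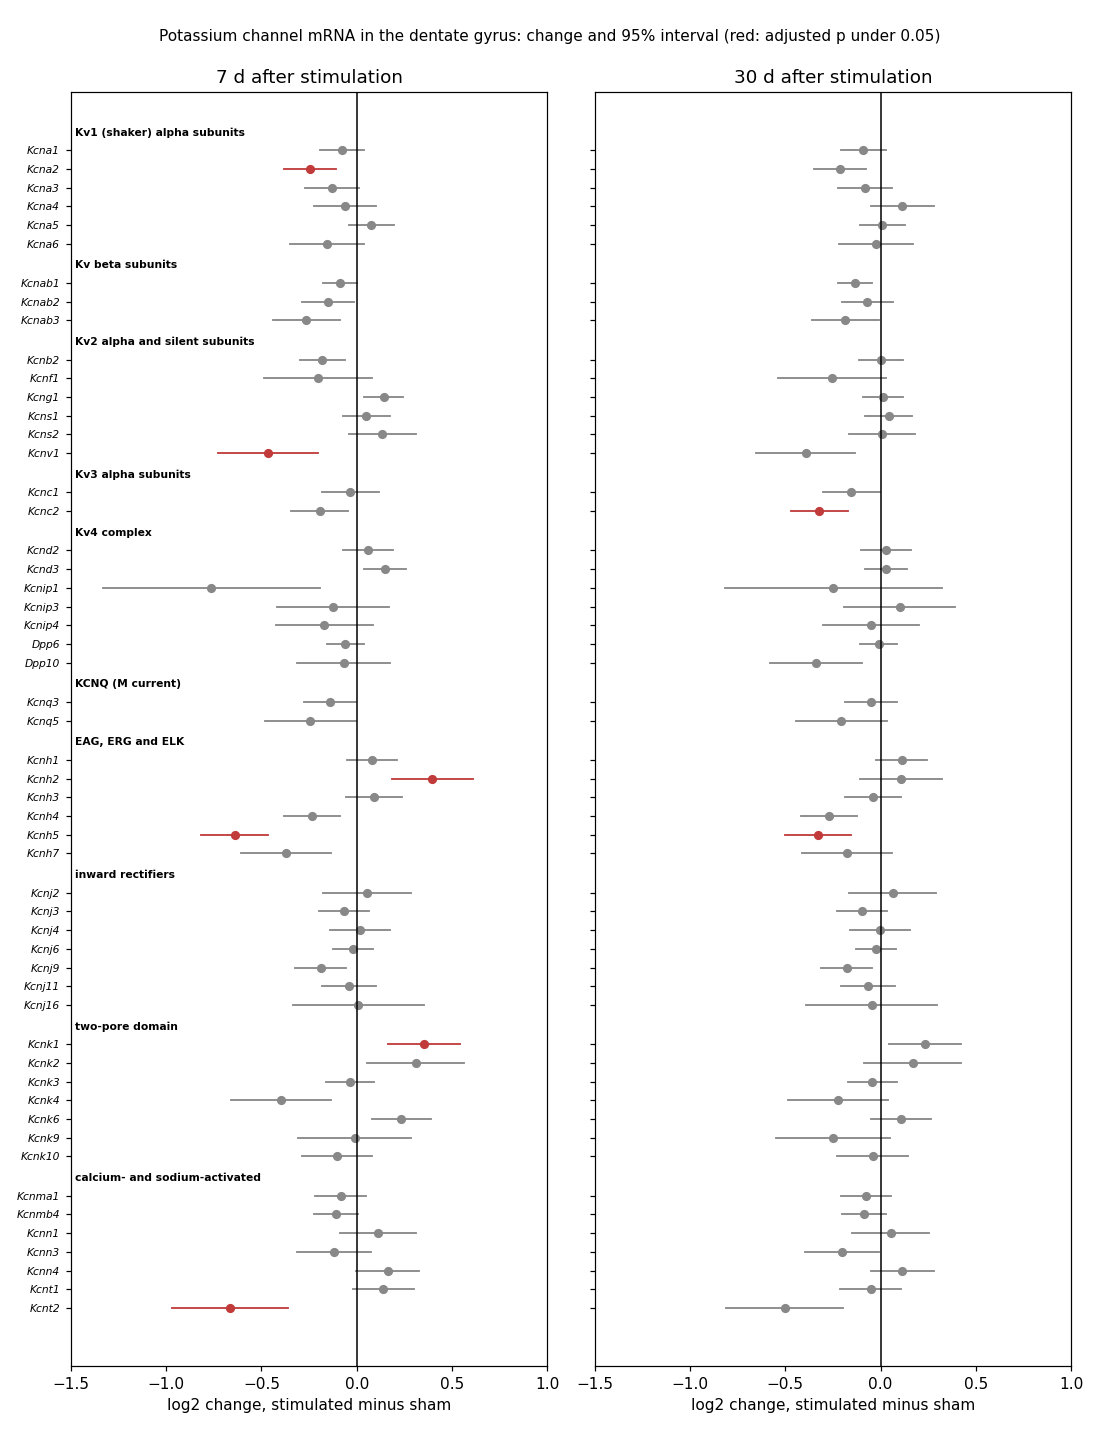
Change of each of the 53 members (log2 intensity, stimulated minus sham) at 7 d and 30 d, with points for the change, bars for the 95% confidence interval and red for an adjusted p under 0.05. Of the members, 35 lie below 0 at 7 d and 36 at 30 d, and red points are 6 at 7 d and 2 at 30 d.

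The EAG, ERG and ELK family, voltage-gated channels that bear a cyclic-nucleotide-binding homology domain, held the most called members at 7 d and in the mean of both times. Of its 6 members, 1 was lower and 1 higher at 7 d, 1 was lower at 30 d, and 3 were lower and 1 higher in the mean of both times. Over all probe sets these shares were 6.48%, 1.73% and 10.1%. The lead was small, as the two-pore family held 3 in the mean, and at 30 d the Kv3 family held 1 as well. Kcnh5, an alpha subunit of the EAG channels, showed the smallest p of all members at 7 d. It read 6.48, 6.38, 6.25, 6.26 and 6.39 in the 5 sham rats at 7 d and 5.87, 5.56, 5.72, 5.69 and 5.71 in the 5 stimulated rats. All stimulated rats thus lay below all sham rats at 7 d. The change was -0.64 (standard error 0.0845, limma adjusted p = 9.62e-05), 0.641 of the sham level. At 30 d Kcnh5 read 6.35, 6.65, 6.15, 6.40 and 6.46 in sham rats and 6.17, 5.79, 6.13, 6.18 and 6.10 in stimulated rats. Here sham replicate 3 lay below 2 of the stimulated rats, so that the groups overlapped, and stimulated replicate 2 was the lowest. The change at 30 d was -0.33 (standard error 0.0845, limma adjusted p = 0.0489). That call was lost when any of 16 of the 20 rats was left out (adjusted p between 0.0515 and 0.165), whereas the 7 d call held without any single rat.

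Kcnh2, the ERG channel best known from the repolarizing current of the heart, moved the other way at 7 d. Sham rats read 5.86, 5.82, 6.11, 5.81 and 5.78 and stimulated rats 6.30, 6.58, 6.23, 6.37 and 5.88. Of the stimulated rats, 4 lay above every sham rat and replicate 5 lay among them. The change was 0.40 (standard error 0.102, limma adjusted p = 0.0208), and the call was lost without sham replicate 4, sham replicate 5 or stimulated replicate 2 (adjusted p between 0.0531 and 0.0684). At 30 d Kcnh2 lay between 5.63 and 5.95 in sham rats and between 5.80 and 6.17 in stimulated rats, with a change of 0.11 (adjusted p = 0.793), and in the mean of both times it was higher (0.25, adjusted p = 0.0282). The latter call was lost without any 1 of 7 rats (sham replicates 4 and 5 and stimulated replicate 2 at 7 d, sham replicates 3 and 5 and stimulated replicates 2 and 5 at 30 d, adjusted p between 0.0510 and 0.0564).

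Kcnh4, an ELK channel subunit, and Kcnh7, an ERG subunit of neurons, were lower in the mean of both times. For Kcnh4 the 7 d values were 6.10, 6.05, 6.05, 5.94 and 6.14 in sham rats against 5.91, 5.89, 5.83, 5.60 and 5.87 in stimulated rats, which did not overlap. The change was close to the same at both times (-0.24 at 7 d and -0.27 at 30 d, adjusted p = 0.0513 and 0.0553) and -0.25 in their mean (standard error 0.0505, limma adjusted p = 0.00179). Kcnh7 read 6.80, 6.75, 6.69, 6.83 and 6.54 against 6.53, 6.51, 6.36, 6.30 and 6.04 at 7 d, again with all stimulated rats below all sham rats. Its change was -0.37 at 7 d (adjusted p = 0.0528) and -0.18 at 30 d, where stimulated replicate 5 (7.16) was the highest of all 20 arrays. In the mean of both times it was -0.27 (adjusted p = 0.0300), a call lost without any 1 of 9 rats (adjusted p between 0.0506 and 0.0640) and without the 2 arrays that stood apart. Kcnh1, the EAG subunit with the highest level of this family, had changes of 0.08 and 0.11 (adjusted p = 0.561 and 0.554).

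Among the calcium- and sodium-activated channels, 1 of 7 members was called at 7 d, none at 30 d and 1 in the mean of both times, in each case Kcnt2. Kcnt2 encodes the sodium-activated channel Slick, which opens on internal sodium. At 7 d it read 8.27, 8.60, 7.93, 8.59 and 8.23 in sham rats and 8.19, 7.64, 7.84, 7.33 and 7.29 in stimulated rats. Stimulated replicate 1 lay above sham replicate 3, and the other 4 stimulated rats lay below every sham rat. The change was -0.67 (standard error 0.147, limma adjusted p = 0.00700), 0.631 of the sham level, and the call held without any single rat. The 30 d values were 8.49, 8.59, 8.69, 8.78 and 8.61 in sham rats and 8.18, 7.81, 8.11, 8.33 and 8.22 in stimulated rats, which did not overlap. The change at 30 d was -0.50 (adjusted p = 0.0924) and in the mean of both times -0.58 (standard error 0.104, limma adjusted p = 0.000646). The remaining 6 members had changes from -0.12 to 0.16 at 7 d and from -0.20 to 0.11 at 30 d. Kcnma1, the pore of the large-conductance BK channel and the member of the highest level here, was 9.23 ± 0.0738 (SD, n = 5) in sham and 9.14 ± 0.166 (SD, n = 5) in stimulated rats at 7 d (adjusted p = 0.542).

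**Figure D2:**
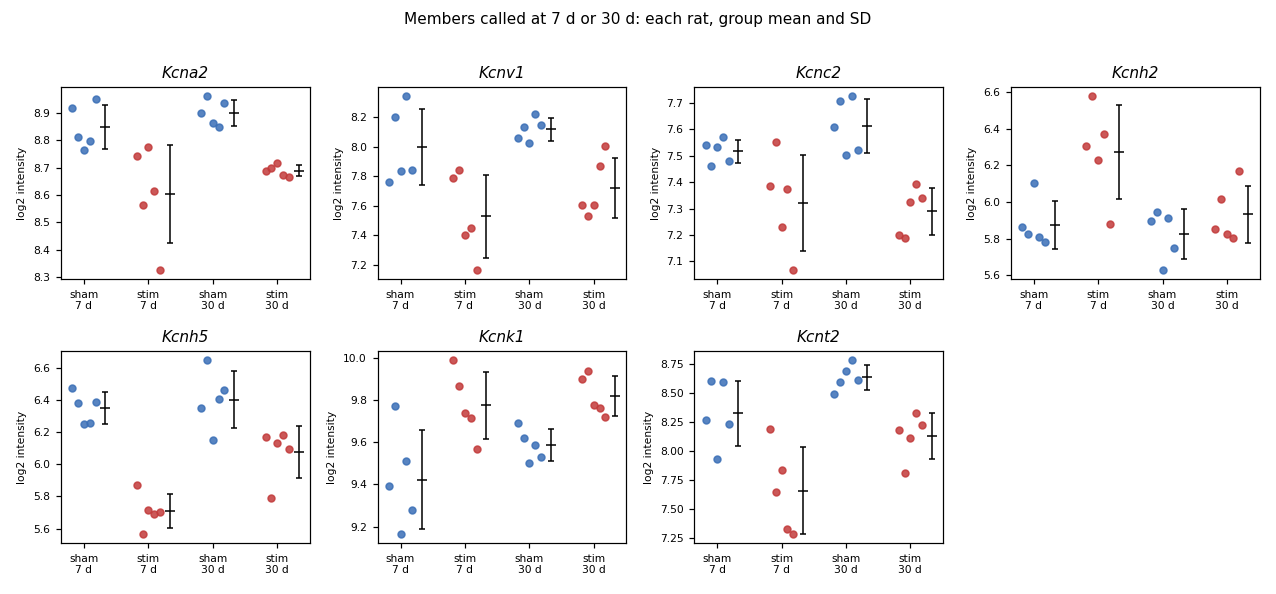
Log2 intensity of the 7 members with an adjusted p under 0.05 at 7 d or 30 d, with 1 point per rat (blue sham, red stimulated) and the group mean and SD (n = 5) beside the points. Kcnh5 at 7 d and Kcna2, Kcnv1, Kcnc2, Kcnk1 and Kcnt2 at 30 d show no overlap between sham and stimulated rats.

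Kv1 alpha subunits form the low-threshold channels of axons, and Kv beta subunits bind them in the cytoplasm and set their inactivation and delivery to the membrane. Of the 6 Kv1 members 1 was called at 7 d and in the mean of both times, and the median change was -0.10 at 7 d and -0.05 at 30 d. Kcna2 read 8.92, 8.81, 8.77, 8.80 and 8.95 in sham rats at 7 d and 8.74, 8.56, 8.78, 8.61 and 8.32 in stimulated rats. Only stimulated replicate 3 overlapped the sham group. The change was -0.24 (standard error 0.0651, limma adjusted p = 0.0242), and the call was lost without sham replicate 1 or 5 or stimulated replicate 2 or 5 (adjusted p between 0.0576 and 0.0738). The values at 30 d were 8.90, 8.96, 8.86, 8.85 and 8.94 in sham rats and 8.69, 8.70, 8.72, 8.67 and 8.67 in stimulated rats. Here the groups did not overlap and the stimulated rats had an SD of 0.0199 (n = 5), with a change of -0.21 (adjusted p = 0.114) and of -0.23 in the mean of both times (adjusted p = 0.00193). Kcna1, the Kv1 subunit with the highest level, had changes of -0.08 and -0.09 (adjusted p = 0.517 and 0.599).

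All 3 Kv beta members had changes below 0 at both times, and 2 were lower in the mean of both. Kcnab1 (-0.11, adjusted p = 0.0186) read 9.17, 9.16, 9.20, 9.17 and 9.15 in sham rats at 30 d and 8.99, 8.99, 9.01, 9.09 and 9.11 in stimulated rats. The 2 groups did not overlap, although the difference was small. Kcnab3 had a change of -0.23 in the mean of both times (standard error 0.0600, limma adjusted p = 0.0169), and its groups overlapped at both times. Kcnab2, with the highest level of the 3, had changes of -0.15 and -0.07 (adjusted p = 0.199 and 0.783).

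Kv2 channels carry the slow delayed rectifier current, and the silent subunits grouped with them form no channel alone but alter Kv2 channels. Of 6 members, 1 was called. Kcnv1, a silent subunit, read 7.76, 8.20, 7.83, 8.34 and 7.84 in sham rats at 7 d and 7.79, 7.84, 7.40, 7.45 and 7.16 in stimulated rats. Stimulated replicates 1 and 2 lay among the sham rats and the other 3 below them. The change was -0.47 (standard error 0.125, limma adjusted p = 0.0258). It lost its call without sham replicate 2 or 4 or stimulated replicate 3, 4 or 5 (adjusted p between 0.0539 and 0.0925). At 30 d Kcnv1 read 8.06, 8.13, 8.02, 8.22 and 8.15 in sham rats and 7.60, 7.53, 7.60, 7.87 and 8.00 in stimulated rats, with no overlap, and the change was -0.39 (adjusted p = 0.138). In the mean of both times it was -0.43 (standard error 0.0887, limma adjusted p = 0.00241). Kcng1, the silent subunit with the highest level of this family, went from 8.65 ± 0.0312 (SD, n = 5) in sham to 8.79 ± 0.0921 (SD, n = 5) in stimulated rats at 7 d without overlap (adjusted p = 0.105), and the 4 others ranged from -0.20 to 0.13 at 7 d.

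Kv3 channels open and close fast and let interneurons fire at high rates. Both Kv3 members tested had changes below 0, and Kcnc2, a Kv3 alpha subunit, was lower at 30 d. Its values were 7.61, 7.70, 7.50, 7.72 and 7.52 in sham rats and 7.20, 7.19, 7.32, 7.39 and 7.34 in stimulated rats. No stimulated rat reached the lowest sham rat. The change was -0.32 (standard error 0.0718, limma adjusted p = 0.0215), 0.800 of the sham level. Without sham replicate 2 or 4 or stimulated replicate 1 or 2 the adjusted p lay between 0.0695 and 0.0769. At 7 d Kcnc2 read 7.54, 7.46, 7.53, 7.57 and 7.48 in sham rats and 7.38, 7.55, 7.23, 7.38 and 7.07 in stimulated rats, with stimulated replicate 2 among the sham rats. The change at 7 d was -0.20 (adjusted p = 0.121) and in the mean of both times -0.26 (adjusted p = 0.00159). Kcnc1 had changes of -0.03 and -0.15 (adjusted p = 0.866 and 0.406). Of 8 markers of GABA interneurons, which are among the cells that express Kcnc2, none was called at 7 d or 30 d. At 7 d 4 had changes below 0 and 4 above it, and at 30 d 7 lay below 0 and 1 above it. In the mean of both times 5 lay below 0 and 3 above it, with changes up to 0.43. Only Gad1, which makes GABA, was called there, and it was lower (-0.18, limma adjusted p = 0.00924). At 30 d its change was -0.24 (adjusted p = 0.0598), with no overlap between the groups. The markers' mean level lay between 7.13 and 7.33 in sham rats at 30 d and between 6.89 and 7.50 in stimulated rats, and their part in the change of Kcnc2 was not tested.

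With 2 called members, the count at 30 d depended on single rats. It was 0 without sham replicate 2 or 4 or stimulated replicate 1 or 2 of 30 d, and 4 without stimulated replicate 5 of 7 d or stimulated replicate 4 of 30 d. It was 1 without sham replicate 5 or stimulated replicate 3 or 5 of 30 d, any sham rat of 7 d or stimulated replicate 2 or 3 of 7 d. It was 4 without the 2 arrays that stood apart and 0 without the 3 arrays with high Wfs1, and all calls in these counts were lower. The count at 7 d lay between 4 and 9 with any rat left out, was 4 without the 2 arrays that stood apart, when Kcna2 and Kcnv1 lost their calls, and 9 without the 3 arrays with high Wfs1.

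Two-pore domain channels carry the leak current that sets the resting potential. Of 7 members, 1 was higher at 7 d, none was called at 30 d, and 2 were higher and 1 lower in the mean of both times. Kcnk1, the weakly rectifying channel TWIK1, read 9.39, 9.77, 9.16, 9.51 and 9.28 in sham rats at 7 d and 9.99, 9.86, 9.74, 9.72 and 9.57 in stimulated rats. Sham replicate 2 lay above 3 of the stimulated rats. The change was 0.35 (standard error 0.0908, limma adjusted p = 0.0199), 1.28 times the sham level, and the call was lost without sham replicate 3 or 5 or stimulated replicate 2 (adjusted p between 0.0523 and 0.0616). At 30 d Kcnk1 read 9.69, 9.62, 9.50, 9.59 and 9.53 in sham rats and 9.90, 9.94, 9.78, 9.76 and 9.72 in stimulated rats, which did not overlap, with a change of 0.23 (adjusted p = 0.273). In the mean of both times it was 0.29 (standard error 0.0642, limma adjusted p = 0.00415).

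Kcnk4 encodes TRAAK, a leak channel that opens on membrane stretch and polyunsaturated fatty acids. It read 8.36, 8.36, 8.40, 8.37 and 8.36 in sham rats at 7 d and 8.10, 8.25, 8.03, 8.05 and 7.43 in stimulated rats. All stimulated rats lay below all sham rats, replicate 5 farthest, while the sham rats hardly varied (SD 0.0195). The change was -0.40 at 7 d (adjusted p = 0.0635), -0.22 at 30 d (adjusted p = 0.542) and -0.31 in the mean of both times (standard error 0.0891, limma adjusted p = 0.0270). The last call was lost without sham replicate 4 or stimulated replicate 5 of 30 d (adjusted p = 0.0558 and 0.0510) and without the 3 arrays with high Wfs1. Kcnk6, the TWIK2 channel, was higher in the mean of both times (0.17, adjusted p = 0.0428), with 4.08, 4.09, 4.25, 4.21 and 4.02 in sham rats at 7 d and 4.32, 4.37, 4.20, 4.31 and 4.61 in stimulated rats. It lay near the floor of 3.69, stimulated replicate 3 overlapped the sham rats, and the call was lost without any 1 of 13 rats (adjusted p between 0.0528 and 0.0859).

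No member of 2 families was called in any comparison of stimulated and sham rats. In the Kv4 complex, which carries the A-type current of dendrites, 0 of 7 members were called. Kcnd2, its main pore subunit in principal neurons, was 10.03 ± 0.0191 (SD, n = 5) in sham and 10.09 ± 0.0563 (SD, n = 5) in stimulated rats at 7 d, a change of 0.06 with a 95% interval from -0.07 to 0.19, and of 0.03 at 30 d (from -0.10 to 0.16). Kcnd3, a second Kv4 subunit named here after its values were seen, lay above the sham range in all 5 stimulated rats at 7 d (0.15, adjusted p = 0.115). Dpp10, a transmembrane partner of Kv4 channels, had changes of -0.07 and -0.34 (adjusted p = 0.824 and 0.183). In the KCNQ family, whose members carry the M current that muscarinic receptors suppress, Kcnq3 had changes of -0.14 and -0.05 (adjusted p = 0.258 and 0.859) and Kcnq5 of -0.24 and -0.21 (adjusted p = 0.256 and 0.535). All 4 of these changes lay below 0, and none passed the test.

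Kcnip1, a calcium-binding partner of Kv4 channels, had the largest change of all members at 7 d and also the largest spread of all members (within-group SD 0.494). It read 6.92, 7.11, 6.12, 6.17 and 7.43 in sham rats and 6.08, 5.99, 6.01, 6.05 and 5.81 in stimulated rats at 7 d. The stimulated rats lay together below all sham rats, and the sham rats were split into 3 high and 2 low. The change of -0.76 did not pass the test (standard error 0.274, limma adjusted p = 0.108). At 30 d the values were 7.28, 7.14, 6.10, 6.91 and 7.21 in sham rats and 6.85, 5.57, 6.86, 7.04 and 7.08 in stimulated rats. There 1 sham and 1 stimulated rat were low, and the change was -0.25 (adjusted p = 0.828), or 0.0289 without the low stimulated rat, replicate 2. No array lay between 6.17 and 6.85, with 9 arrays below that gap (2 sham and all 5 stimulated rats of 7 d, 1 of each group of 30 d) and 11 above it.

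**Figure D3:**
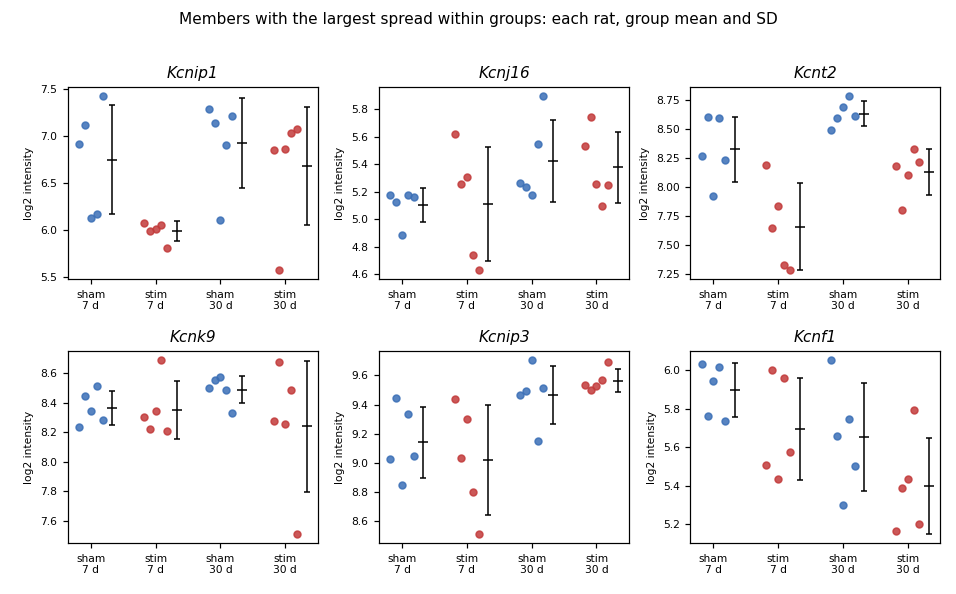
Log2 intensity of the 6 members with the largest SD within groups (Kcnip1, Kcnj16, Kcnt2, Kcnk9, Kcnip3 and Kcnf1), with 1 point per rat (blue sham, red stimulated) and the group mean and SD (n = 5) beside the points. Kcnip1 falls into values of at most 6.17 and of at least 6.85, and Kcnk9 has a single low rat among the stimulated rats of 30 d (7.51).

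Inward rectifiers pass potassium best near the resting potential, and the GIRK channels among them open on G proteins. Of 7 members none was called at 7 d or 30 d and 1 was lower in the mean of both times. Kcnj9, a GIRK subunit, read 6.08, 6.02, 6.31, 6.14 and 6.17 in sham rats at 7 d and 5.91, 5.84, 5.97, 6.08 and 5.98 in stimulated rats. Stimulated replicate 4 reached into the sham range and the others lay below it. The change was -0.19 at 7 d and -0.18 at 30 d (adjusted p = 0.0888 and 0.221) and -0.18 in the mean of both times (standard error 0.0456, limma adjusted p = 0.0105), a call that held without any single rat. Kcnj3, the GIRK subunit with the highest level here, had changes of -0.07 and -0.10 (adjusted p = 0.639 and 0.614). The changes of the family ranged from -0.19 to 0.05 at 7 d and from -0.18 to 0.06 at 30 d.

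**Figure D4:**
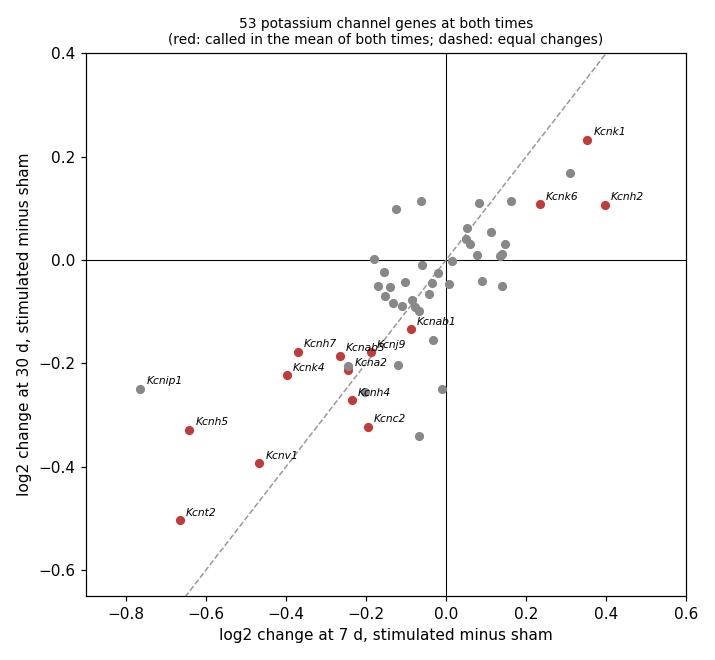
Log2 change (stimulated minus sham) of the 53 members at 7 d on the horizontal and at 30 d on the vertical axis, with members called in the mean of both times in red and a dashed line where the changes are equal. The 32 members below 0 at both times lie in the lower left, and the 14 above 0 at both times in the upper right.

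The change itself was compared between the times. No member's change differed between 30 d and 7 d after adjustment, and 2 of 53 had an unadjusted p under 0.05, against 4.32% of all probe sets. These were Kcnh5, whose change was smaller in size at 30 d (difference 0.31), and Kcnb2 (0.18), with adjusted p close to 1 in limma for both. All 6 members called at 7 d had a smaller change in size at 30 d, but for none was the difference called. These 6 were picked by their 7 d change, and such a choice by itself favours a smaller change at 30 d, so no fading can be read from it. The median 95% interval of the difference reached 0.221 to either side, before adjustment. At an unadjusted p under 0.05, 21 members differed between stimulated and sham rats at 7 d, against 18.4% of all probe sets, and 13 at 30 d, against 11.4%. Sham and stimulated rats did not overlap in 7 members at 7 d, 5 lower and 2 higher (6.25% of all probe sets), and in 6 members at 30 d, 5 lower and 1 higher (4.27% of all probe sets). No member was in both groups: at 7 d they were Kcng1, Kcnd3, Kcnip1, Kcnh4, Kcnh5, Kcnh7 and Kcnk4, and at 30 d Kcna2, Kcnab1, Kcnv1, Kcnc2, Kcnk1 and Kcnt2.

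Some members differed between the times more than between treatments. The F test over the 4 groups, which stands for the one-way analysis of variance of the methods, called 20 of 53 members, against 22% of all probe sets. Of these, 8 were called in no comparison of stimulated and sham rats. A comparison of 30 d with 7 d over both treatments, added after that result was seen, called 16 members (9 higher and 7 lower at 30 d), against 20.8% of all probe sets (11.7% higher). Between the sham groups alone no member was called, and 6 had an unadjusted p under 0.05, against 13.3% of all probe sets. The 4 members named next were chosen after their values were seen, as those of smallest p.

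Kcnb2, a Kv2 alpha subunit of the delayed rectifier, was 6.84 ± 0.0291 and 6.66 ± 0.141 (SD, n = 5 each) in sham and stimulated rats at 7 d and 6.96 ± 0.0359 and 6.96 ± 0.0719 at 30 d. All 10 rats of 30 d lay above all 10 rats of 7 d, and the difference was 0.20 (standard error 0.0397, limma adjusted p = 0.00350). Kcnip4 and Kcnip3, calcium-binding partners of Kv4 channels, were higher at 30 d by 0.42 and 0.44 (adjusted p = 0.00415 and 0.00592). Kcnip4 lay between 7.45 and 8.22 in the rats of 7 d and between 7.99 and 8.40 in those of 30 d, and Kcnip3 between 8.51 and 9.45 and between 9.15 and 9.71, so that both overlapped. Kcnk3, the acid-sensitive leak channel TASK1, was lower at 30 d (-0.19, adjusted p = 0.00673). The count of 16 was 8 without sham replicate 3 or 5 or stimulated replicate 4 of 7 d, 10 without sham replicate 1 or stimulated replicate 2 or 5 of 7 d or stimulated replicate 5 of 30 d, between 11 and 18 without any other rat, 10 without the 2 arrays that stood apart and 6 without the 3 arrays with high Wfs1. Rats of the 2 times differ in age as well as in time after surgery, and these cannot be told apart. Array dates were not given, so any batch that goes with the time cannot be told apart from them either.

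**Figure D5:**
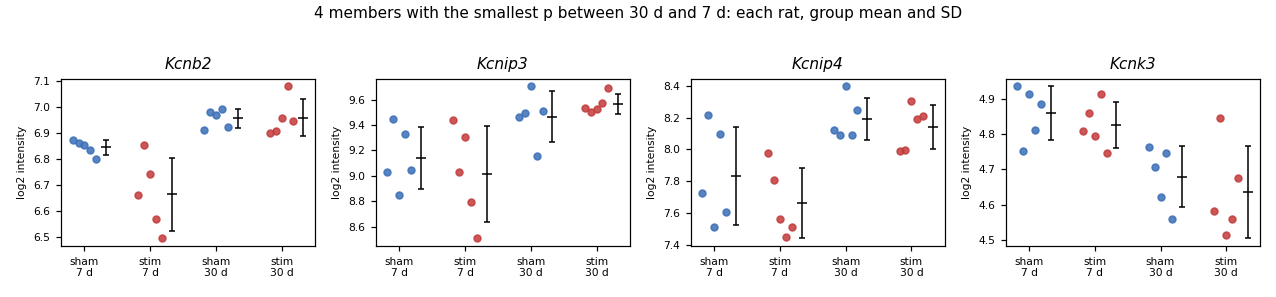
Log2 intensity of the 4 members with the smallest p between 30 d and 7 d, with 1 point per rat (blue sham, red stimulated) and the group mean and SD (n = 5) beside the points. All rats of 30 d lie above all rats of 7 d in Kcnb2, while the times overlap in Kcnip3, Kcnip4 and Kcnk3.

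Of 39 further potassium channel genes that were not among the members, 27 were measured. Of these, 1 was lower and 1 higher at 7 d (7.41%, near the 6.48% of all probe sets). None was called at 30 d, against 1.73% of all probe sets. In the mean of both times 2 were lower and 3 higher (18.5%, against 10.1% of all probe sets). Kcns3, another silent subunit of Kv2 channels, was lower at 7 d (-0.28, adjusted p = 0.00759) with no overlap at either time. It read 4.53, 4.80, 4.74, 4.40 and 4.51 in sham rats at 7 d and 4.38, 4.30, 4.38, 4.28 and 4.25 in stimulated rats. Kcnk13, the two-pore channel THIK1 that microglia express, was higher at 7 d (0.32, adjusted p = 0.0171). It read 6.01, 5.80, 6.21, 5.76 and 6.02 in sham rats and 6.17, 6.23, 6.17, 6.34 and 6.47 in stimulated rats, and only sham replicate 3 overlapped. The call was lost without sham replicate 2 or 4 or stimulated replicate 5 (adjusted p between 0.0563 and 0.0619). In the mean of both times Kcng3, a silent subunit, was lower (-0.29, limma adjusted p = 0.0332). Kcnj5, a GIRK subunit, and Kcne5, a small membrane-spanning partner, were higher there (0.22 and 0.43, limma adjusted p = 0.0178 and 0.0197). Kcnj5 lay near the floor of 3.69, with a mean of 4.08 over all arrays, and the mean of Kcns3 was 4.47. The call of Kcng3 was lost without any 1 of 9 rats (adjusted p between 0.0502 and 0.0700).

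Markers of other cells moved at the same times. Of 6 microglia markers, 5 were higher at 7 d and 4 at 30 d, and their mean level lay between 6.40 and 6.60 in sham rats and from 7.08 to 7.87 in stimulated rats at 7 d, and from 6.38 to 6.75 and from 6.73 to 7.73 at 30 d. Gfap and Aqp4 of 5 astrocyte markers were higher at 7 d and Gfap at 30 d, with a mean level of 9.36 to 9.59 in sham and 9.56 to 9.89 in stimulated rats at 7 d. Of 7 granule cell markers Calb1 and Plk5 were lower and Dcx higher at 7 d, and the mean level was 8.01 to 8.29 in sham and 7.75 to 8.08 in stimulated rats. None of 6 pan-neuronal markers was called, and their mean level lay between 10.51 and 10.68 in all arrays. Their changes were nevertheless below 0 in 6 of 6 at 7 d (median -0.06) and in 5 of 6 at 30 d (median -0.02). The part of these cells in the members' changes was not tested, and in tissue RNA fewer cells of a type and less RNA per cell cannot be told apart.

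Several members lie next to each other in GRCr8, where Kcna3 and Kcna2 are neighbours on chromosome 2, Kcna5, Kcna1 and Kcna6 on chromosome 4, and Kcnj16 and Kcnj2 on chromosome 10. Of these only Kcna2 was called. Its neighbour Kcna3 had changes of -0.13 and -0.08 (adjusted p = 0.308 and 0.724), a difference between the neighbours that was not tested.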

How the data were processed

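RNA of the left dentate gyrus of 20 rats was measured with 1 array per rat. The deposited values are log2 intensities that the authors made with RMA (oligo 1.22.0 in the submitters' processing notes), and no counts or depth apply, so that the 5 arrays of each group limit the precision. Of the probe sets, 18644 carried 1 symbol, 962 several and 9608 none. The methods took the median of the antigenomic probes as background. Those probes could not be told from the others, so the 20th percentile of all values (3.69) stood in as the floor. As in the methods, lower values were raised to it, and a probe set was dropped once over 5 arrays gave no value above it, which left 15800.

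Treatment and time in the labels gave the groups, with rats as biological replicates. limma 3.58.1 in R 4.3.3 (lmFit, eBayes, 1 model of the 4 groups) gave all adjusted p, two-sided, adjusted over the 15800 probe sets, and was tested on simulated data. The members and lists were chosen with earlier results of these data known. Named were members called in any comparison, in each family the member with the smallest p at each time and that of the highest level, and called genes of the 2 further lists. Probe sets, and not families, were tested. Alternatives were no or a stricter filter, no floor, quantile normalization, median centring, an intensity trend with robust moderation, unmoderated tests, array weights, only the groups compared, averaged probe sets, a block for the replicate number and the removal of each rat. After seeing the data, 2 arrays that stood apart and 3 with high Wfs1 were left out, and 30 d was compared with 7 d over both treatments. Array dates were not given in the sources used here. Promoters are those of RefSeq (GRCr8). The miRNA arrays were not analysed here.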

Additional observations from a re-analysis of the deposited data

Results flagged for a closer look

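In 148 groups of 5 rats (37 named genes), 10 held a rat set apart from the other 4, judged by its gap to the nearest rat relative to the group's range. The gap itself can be small, as for Kcnk4 in sham rats at 7 d. Chance alone sets about 1 in 20 groups apart, and the groups share the same arrays, so no excess is read from these 10. In sham rats at 30 d, replicate 3 was the highest in Kcna1 (10.15, next 9.94) and Kcnd2 (10.19, next 9.99), and this array stood apart over all genes. In stimulated rats at 30 d, replicate 2 was the lowest in Kcnip1 (5.57, next 6.85) and Kcnh5 (5.79, next 6.10), replicate 4 the lowest in Kcng1 (8.56, next 8.67) and replicate 5 the highest in Kcne5 (7.69, next 6.88). In sham rats at 7 d, replicate 3 was the highest in Kcnh2 (6.11, next 5.86) and Kcnk4 (8.40, next 8.37). In stimulated rats at 7 d, replicate 4 was the lowest in Kcnh4 (5.60, next 5.83) and replicate 5 the lowest in Kcnk4 (7.43, next 8.03). Without stimulated replicate 2, the change of Kcnh5 at 30 d was -0.26 (adjusted p = 0.165 from limma).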

How the results depend on the processing

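At 7 d the 6 called members became 12 with median centring (2 higher, 10 lower) and with array weights (5 higher, 7 lower), and 3 in a model of the 2 groups alone. They were between 4 and 9 with any rat left out. At 30 d the 2 called members became 1 with quantile normalization, median centring or an intensity trend, 8 with array weights, 4 in a model of the 2 groups alone, 4 without the 2 arrays that stood apart and 0 without the 3 arrays with high Wfs1 (0 to 4 with any rat left out). The 14 of the mean of both times lay between 11 and 15 with any rat left out and between 10 and 20 over all 32 alternatives. The 20 of the F test became 32 with array weights and 13 without the 3 arrays with high Wfs1 (15 to 24 with any rat left out). The sham groups differed in 0 members between the times, and in 6 with array weights. The shares of all probe sets called under these alternatives are not given here, and the cause of these shifts was not tested. Kcnh5 and Kcnt2 at 7 d kept their calls in all 33 alternatives (adjusted p at most 0.00122 and 0.0466), and Kcnh5 at 30 d lost its call in 24 of 33.

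The deviations of same-numbered rats from their group means correlated above 0.1 in 7 of 30 pairs (range -0.489 to 0.241). Rats of different numbers were not compared, so this cannot decide whether the number marks a pair or a shared day. With the replicate block the counts were 7 at 7 d, 1 at 30 d, 12 in the mean of both times and 18 in the F test.

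Signs turned for 4 changes, none of them called. Near 0 were Kcnc1 at 7 d (-0.0817 to 0.0112 with a rat left out, and 0.0042 without the 2 arrays that stood apart), Kcng1 at 30 d (-0.0118 to 0.0408 with a rat left out, -0.0175 with array weights, -0.0118 without the 2 arrays) and Kcnd2 at 30 d (-0.0287 to 0.0738 with a rat left out, -0.0185 without the 3 arrays with high Wfs1). The change of Kcnip1 at 30 d (-0.25) was larger and turned to 0.0289 without stimulated replicate 2 (from -0.455 with a rat left out).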

Other observations

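Proteins that bind potassium channels were measured in 19 of 20 listed genes. At 7 d, 1 was lower and 1 higher (10.5%, against 6.48% of all probe sets). The same 2 genes, Epb41l3 and Lrrc55, were called at 30 d in the same direction (10.5%, against 1.73% of all probe sets). Lrrc55, an auxiliary subunit of BK channels, read 6.02, 5.97, 5.78, 5.91 and 5.82 in sham rats at 7 d and 6.08, 6.26, 6.28, 6.10 and 6.35 in stimulated rats. All stimulated rats lay above all sham rats, and again at 30 d, where sham rats lay between 5.87 and 6.01 and stimulated rats between 6.12 and 6.57. Its changes were 0.32 and 0.44 (adjusted p = 0.00994 and 0.00336 from limma), and both calls held without any single rat.

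Epb41l3, the protein that anchors axonal channel clusters beside the node of Ranvier, read 7.97, 8.03, 8.01, 7.95 and 7.97 in sham rats at 7 d and 7.89, 7.83, 7.76, 7.72 and 7.39 in stimulated rats, with no overlap at either time. Its changes were -0.27 and -0.30 (adjusted p = 0.0254 and 0.0336). The 7 d call was lost without sham replicate 2 or stimulated replicate 5 (adjusted p = 0.0586 and 0.0641), and the 30 d call without any 1 of 8 rats (adjusted p between 0.0617 and 0.114). In the mean of both times 5 of the 19 were lower and 1 higher (31.6%, against 10.1% of all probe sets, with 4.46% lower). Beside Epb41l3, the lower genes were Cntnap2 (-0.26), which clusters Kv1 channels on axons, and Amigo1 (-0.16), a partner of Kv2 channels. The others were the scaffold Dlg2 (-0.16) and the kinase anchor Akap5 (-0.31). The call of Amigo1 was lost without any 1 of 3 rats and that of Dlg2 without any 1 of 8.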
